A study of Mus musculus with 20 samples.

Results

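The genes described here are the 46 that encode the machinery of DNA replication and its supply: the origin and helicase proteins (21 genes), the replicative polymerases and primase (9), the sliding clamp, its loader, single-strand binding protein RPA and the enzymes of Okazaki fragment processing (11), nucleotide supply (3) and the histone chaperone CAF-1 (2). They were taken by gene symbol from a list defined by function, drawn up with earlier results of these data known, and all 46 were found among the 16014 named genes of the deposited table. All 46 also passed the filter on low values, which 15068 genes passed. Wild-type mouse zygotes of the strain labelled F1 C57BL/6Jx129S1/SvlmJ had been microinjected and cultured to blastocysts, and each library was made from total RNA, depleted of ribosomal RNA, of a pool of 10 embryos. The 3 groups were 5 pools injected with a mimic of the microRNA let-7f-5p at the doubled concentration (2x Str let-7f), 8 pools injected with it at a concentration set by the rise of this microRNA in sperm after stress (Str let-7f), and 7 pools injected with the nuclease-free water that carried it (vehicle). No group received an unrelated mimic, so an effect of the let-7f sequence cannot be told apart from one of injecting any mimic. The labels do not say whether the pools came from separate females or days, so the p-values measure the spread between pools, which may be partly technical.

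Before S phase, the origin recognition complex (ORC) binds DNA and, with CDC6 and CDT1, loads the MCM2 to MCM7 ring, the inactive form of the replicative helicase. This step is called licensing, and geminin blocks it by binding CDT1 once S phase has begun. CDC45 and the GINS complex then join the ring to form the moving helicase, behind which the polymerases copy the strands and CAF-1 deposits new histones. Many of these genes are transcribed by E2F factors as cells enter S phase. The let-7 microRNAs are known to act against cell-cycle genes in other cells, and the comparisons ask whether the injected mimic moved the replication genes in the blastocyst.

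The first sequence below is the mature strand of mouse let-7f-5p in RefSeq, identical to the mimic, and its capitals mark the seed (bases 2 to 8). Target sites are complementary to that seed. CTACCTC, the 7-base match, stands in the longest annotated 3′ UTR (GENCODE M21) of 2 of the 46 replication genes. These are shown with the match in capitals, in Rrm2 extended by the A that lies opposite position 1 of the microRNA in a full site.

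let-7f-5p: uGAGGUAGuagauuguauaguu

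Rrm2 3′ UTR, chromosome 12: ctgtgtagCTACCTCAgtcctgtt

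Pold3 3′ UTR, chromosome 7: atgCTACCTCtgaaaggac

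The share with CTACCTC was 4.35% of the 46 genes, against 11.0% of the 13742 measured genes that have an annotated 3′ UTR (1511 genes). CTACCTCA stood in 1 of the 46 (2.17%), against 520 of the 13742 (3.78%). The replication genes also have shorter 3′ UTRs, with a median of 547 bases against 1198 bases for all measured genes, so the difference in share is not one at equal length. These are letter matches, not measured binding.

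The promoters were also searched. The E2F motifs TTTCCCGC, TTTGGCGC, TTTCGCGC and TTTGCCGC were searched on both strands, allowing overlaps, in RefSeq promoters of 300 bases that run from 250 bases before the annotated start to 50 after it (build GRCm38.p6). At least 1 motif stood in 15 of the 38 replication genes that have a promoter in the table (39.5%), against 508 of 11262 measured genes (4.51%). By role, the motif stood in 9 of 16 helicase and origin genes, 4 of 7 polymerase genes and 2 of 10 clamp, loader, RPA and Okazaki genes. By motif, TTTCCCGC stood in 8 of the replication genes and in 251 measured genes in all, TTTGGCGC in 6 and 120, TTTCGCGC in 6 and 84, and TTTGCCGC in 0 and 73. None of the 3 nucleotide supply or 2 chaperone promoters held these letters in this window. The windows below come from licensing genes whose values are given further on, each in the gene's own direction with the motif, or its reverse complement, in capitals.

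Cdc6, promoter chr11:98907901-98908200, plus strand: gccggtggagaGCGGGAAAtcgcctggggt

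Mcm5, promoter chr8:75109259-75109558, plus strand: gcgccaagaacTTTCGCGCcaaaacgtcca

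Mcm6, promoter chr1:128359656-128359955, minus strand: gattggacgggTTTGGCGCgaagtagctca

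Mcm7, promoter chr5:138171834-138172133, minus strand: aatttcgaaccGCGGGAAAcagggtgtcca

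Relative to the annotated start, at 0, the motif in capitals begins at position -138 in Cdc6, -153 in Mcm5, -47 in Mcm6 and -165 in Mcm7. Further matches begin at -149 in Mcm5, overlapping the one in capitals, at -110 and -106 in Mcm6 and at 16 in Mcm7. The Cdt1 promoter on chromosome 8 holds TTTGGCGC just past its start, at position 32. The other genes with a motif were Mcm3, Orc1, Orc3, Gins3, Pola1, Pold1, Pold3, Pole2, Rfc3 and Lig1. By fold change, Pola1, Pold3 and Rfc3 lay above vehicle in both let-7f groups. Mcm3, Orc1, Gins3, Pole2 and Lig1 lay below it in both, and Orc3 and Pold1 differed in direction between the groups. A match is a description of these letters and not a measured E2F site.

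Library depth ranged from 1.94 M to 27.2 M recovered reads in the 2x Str let-7f pools, from 1.54 M to 58.8 M in the Str let-7f pools and from 3.30 M to 46.6 M in the vehicle pools, and 5 of the 20 libraries held fewer than 5 M. Values are normalized counts, which the authors scaled to equal depth, so a change shared by all genes of a pool would not show. Blastocyst markers were present: all 10 trophectoderm markers were measured, with summed levels of 84342 to 127520 normalized counts in 2x Str let-7f, 70280 to 115638 in Str let-7f and 73368 to 109806 in vehicle. The epiblast markers, 8 of 9 in the table, summed to 6648 to 7964 in 2x Str let-7f, 6398 to 12004 in Str let-7f and 6414 to 9416 in vehicle. The 12 primitive endoderm markers did separate the groups, with sums of 28043 to 52402 in 2x Str let-7f and 28025 to 53079 in Str let-7f, against 56717 to 77307 in vehicle. By limma's adjusted p, 5 of these 12 fell in 2x Str let-7f and 7 fell in Str let-7f. Markers of cumulus, sperm and blood cells reached at most 216 summed normalized counts in any pool. In RNA of whole embryos, fewer cells of a type and less RNA per cell cannot be told apart, and the part of the lower primitive endoderm level in the values below was not tested.

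No replication gene changed past the threshold in any comparison. The test was limma on log2(normalized count + 1) over all 15068 genes, with Benjamini-Hochberg adjusted p under 0.05. Against vehicle, in 2x Str let-7f it called 0 of the 46, where it called 1.89% of all genes, and 6 of the 46 (13.0%) had an unadjusted p under 0.05, where 12.9% of all genes did. In Str let-7f against vehicle it called 0 of the 46, where it called 2.63% of all genes, and 7 of the 46 (15.2%) had an unadjusted p under 0.05, where 14.9% of all genes did. Those shares lie at the background of all genes. edgeR and DESeq2 on the recovered reads also called 0 of the 46 in both comparisons. In none of the 46 did the 2x Str let-7f pools or the Str let-7f pools lie wholly apart from the vehicle pools, a separation seen in 2.25% of all genes for 2x Str let-7f and in 0.849% for Str let-7f.

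The replication genes nevertheless lay mostly below the vehicle level, by little. The median log2 fold change over the 46 was -0.17 in 2x Str let-7f against vehicle, with 35 below 0, and -0.10 in Str let-7f against vehicle, with 32 below 0. Over all genes tested the median was -0.01 in 2x Str let-7f, with 50.7% below 0, and -0.02 in Str let-7f, with 51.8% below 0. The 2 comparisons share the same vehicle pools, so these values are not independent of each other. Of the unadjusted p under 0.05, all 6 were negative in 2x Str let-7f and 6 of 7 in Str let-7f. The summed level of the 46 genes was 43091 ± 3131 normalized counts in 2x Str let-7f (SD, n = 5) and 43258 ± 2972 in Str let-7f (SD, n = 8), against 46793 ± 2978 in vehicle (SD, n = 7), and the ranges of the 3 groups overlapped. In each pool, the median over the 46 genes of the log2 difference from the vehicle mean ran from -0.24 to 0.00 in 2x Str let-7f, from -0.23 to 0.04 in Str let-7f and from -0.12 to 0.15 in vehicle.

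**Figure D1:**
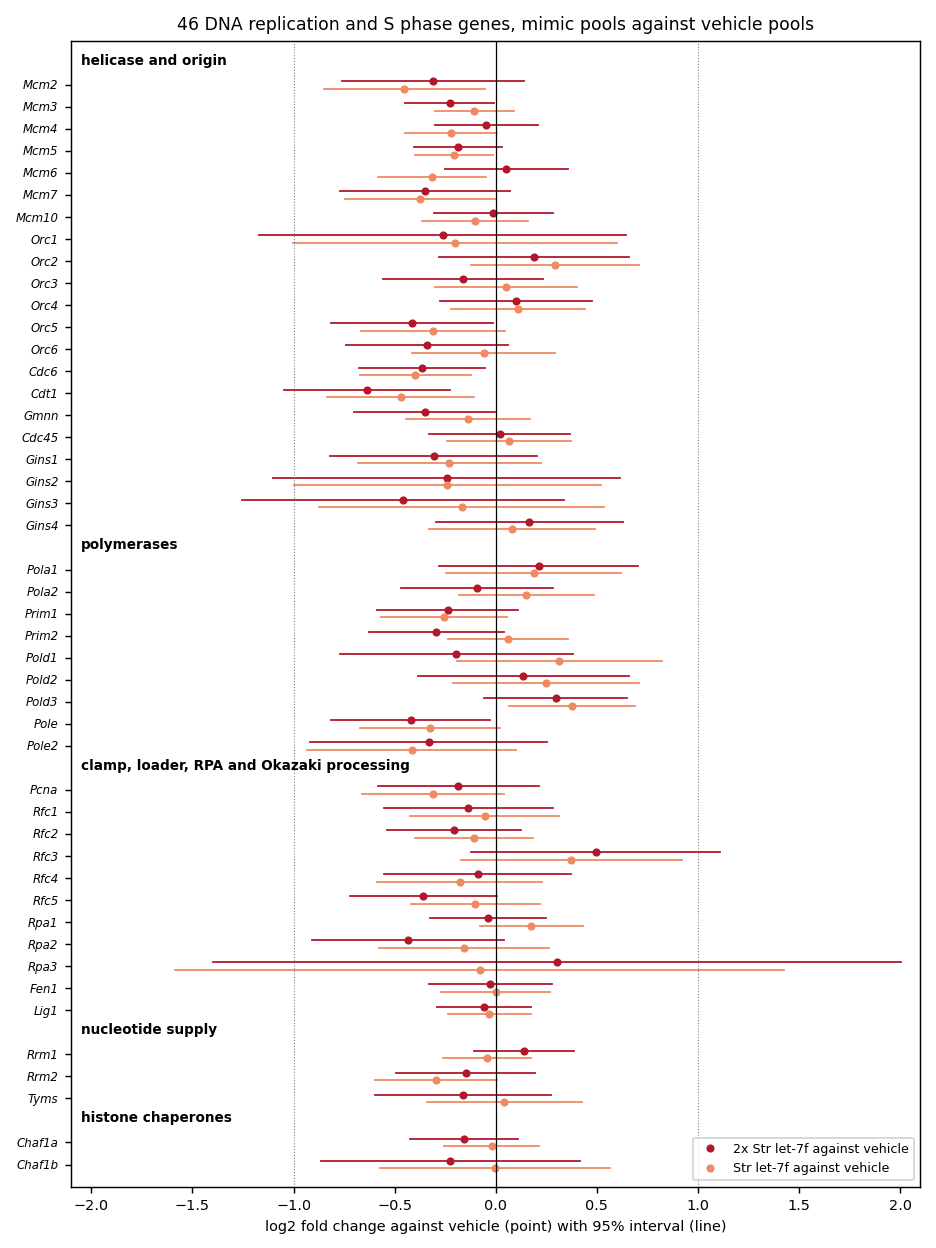
Log2 fold change (x axis, log2 scale) of each of the 46 replication genes (y axis, by role) in 2x Str let-7f and Str let-7f, each against vehicle, with lines for the 95% interval from limma. Most points lie left of 0, 35 in 2x Str let-7f and 32 in Str let-7f, and Rpa3, the gene with the fewest reads, has the widest interval.

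The plot of fold changes shows how closely the data bound each gene. The 95% interval lay within a 2-fold change either way for 40 of the 46 genes in 2x Str let-7f and for 44 in Str let-7f. It lay within a 1.5-fold change for 19 in 2x Str let-7f and for 25 in Str let-7f.

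Both mimic groups combined, as the mean of the 2 group means against vehicle, gave the same picture. limma called 0 of the 46, where it called 4% of all genes, and 8 of the 46 (17.4%, 7 of them below vehicle) had an unadjusted p under 0.05, where 16.3% of all genes did. edgeR called 1 of the 46 (Cdt1) with either scaling, where it called 608 (TMM) and 605 (RLE) of all 15068 genes. DESeq2 called 2 of the 46 (Cdt1 and Cdc6), where it called 1005 of all 15068 genes. No replication gene had all 13 mimic pools apart from all vehicle pools, which 0.484% of all genes did. The median log2 fold change was -0.13 over the 46, with 33 below 0, and -0.01 over all genes.

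Cdt1 stood nearest to the threshold in 2x Str let-7f and in both groups combined. It encodes the licensing factor that brings the MCM ring to ORC and is destroyed as S phase begins. Its normalized counts were 1594, 1295, 935, 692 and 923 in the 5 pools of 2x Str let-7f, and ran from 842 through a median of 1230 to 1382 in Str let-7f, against 1181 through 1434 to 2317 in vehicle. All 8 Str let-7f pools and 4 of 5 of 2x Str let-7f lay below the vehicle median, but both groups overlapped the vehicle range, with 3 of 5 pools of 2x Str let-7f and 4 of 8 of Str let-7f below every vehicle pool. The means were 1088 ± 356 in 2x Str let-7f and 1185 ± 190 in Str let-7f, against 1675 ± 464 in vehicle. The log2 fold change was -0.64 ± 0.20 (SE, limma adjusted p = 0.112) in 2x Str let-7f, -0.47 ± 0.18 (adjusted p = 0.185) in Str let-7f and -0.55 ± 0.16 (adjusted p = 0.0534) for both groups combined, and values after ± beside a fold change are standard errors here and below.

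Whether Cdt1 counted as changed depended on the setting. Leaving out 2x Str let-7f replicate 1, the highest of its group, gave a limma adjusted p of 0.0396 in 2x Str let-7f and of 0.0188 for both groups. For both groups the adjusted p was also under 0.05 without 2x Str let-7f replicate 2 (0.0457), without Str let-7f replicate 1 (0.0483) or without vehicle replicate 7 (0.0324). With only the libraries over 5 M reads it was 0.223, and the log2 fold change -0.44.

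Cdc6, the ATPase that works with CDT1 in loading the ring, had the smallest p of the 46 in Str let-7f and the next after Cdt1 in 2x Str let-7f. Its normalized counts were 724, 656, 825, 759 and 681 in the pools of 2x Str let-7f, and ran from 591 through 677 to 845 in Str let-7f, against 724 through 939 to 1225 in vehicle. Every mimic pool lay below the vehicle median, and 3 of 5 pools of 2x Str let-7f and 5 of 8 of Str let-7f lay below every vehicle pool, replicate 1 of 2x Str let-7f by less than 1 normalized count. Its log2 fold change was -0.36 ± 0.15 (limma adjusted p = 0.285) in 2x Str let-7f, -0.40 ± 0.13 (adjusted p = 0.123) in Str let-7f and -0.38 ± 0.12 (adjusted p = 0.0855) for both together. Gmnn, which encodes geminin, the inhibitor of CDT1, had log2 fold changes of -0.35 ± 0.17 (adjusted p = 0.379) in 2x Str let-7f and -0.14 ± 0.15 (adjusted p = 0.731) in Str let-7f. Its 2x Str let-7f pools, at 306, 368, 411, 299 and 397 normalized counts, all lay below the vehicle median of 455, within or just under the vehicle range of 319 to 638.

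**Figure D2:**
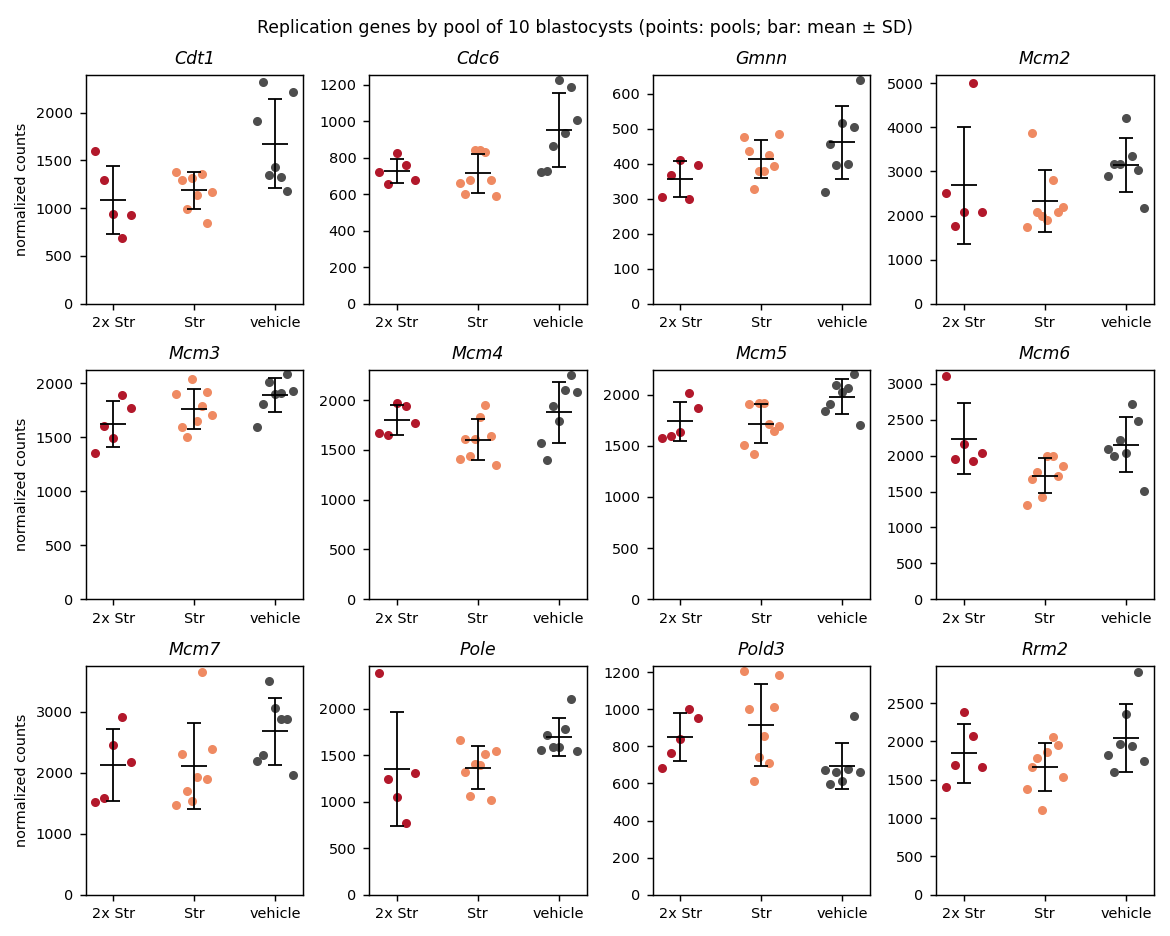
Normalized counts per pool (y axis, starting at 0) of Cdt1, Cdc6, Gmnn, Mcm2 to Mcm7, Pole, Pold3 and Rrm2. These genes were picked from those described in the text and are not a ranking by p. Each point is 1 pool of 10 embryos, with a bar at the group mean and an error bar of 1 SD. The groups are 2x Str let-7f (n = 5), Str let-7f (n = 8) and vehicle (n = 7). For Cdt1 the mean is 1088 in 2x Str let-7f and 1185 in Str let-7f, against 1675 in vehicle, and the groups overlap in every gene shown.

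The plot of normalized counts per pool shows the same overlap for the 6 genes of the MCM2 to MCM7 ring. In Str let-7f all 6 had a negative log2 fold change against vehicle, with a median of -0.27. Of these, 4 (66.7%) had an unadjusted p under 0.05, where 14.9% of all genes did. Of the 6, 5 were negative in 2x Str let-7f, with a median of -0.21. There 1 (16.7%) had an unadjusted p under 0.05, where 12.9% of all genes did. The 6 were not tested as a group. The median of the 6 in each pool, as a log2 difference from the vehicle mean, ran from -0.31 to 0.05 in 2x Str let-7f, from -0.54 to -0.08 in Str let-7f and from -0.32 to 0.15 in vehicle. All 8 Str let-7f pools were below 0, as were 4 of 5 of 2x Str let-7f and 3 of 7 vehicle pools.

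Mcm2 and Mcm7 lay lowest of the ring genes by fold change. Mcm2 had 2516, 1771, 2083, 5015 and 2070 normalized counts in 2x Str let-7f, and ran from 1744 through 2076 to 3875 in Str let-7f, against 2161 through 3166 to 4219 in vehicle. A single pool of 2x Str let-7f, replicate 4, was above every vehicle pool, and the other four were below the vehicle median. Its log2 fold change was -0.31 ± 0.22 (limma adjusted p = 0.603) in 2x Str let-7f and -0.45 ± 0.19 (adjusted p = 0.254) in Str let-7f. Mcm7 had 1526, 1593, 2460, 2923 and 2174 normalized counts in 2x Str let-7f, and ran from 1480 through 1917 to 3648 in Str let-7f, against 1963 through 2879 to 3511 in vehicle. Here 7 of 8 Str let-7f pools lay below the vehicle median and the eighth, replicate 7, above every vehicle pool. For Mcm7 the log2 fold change was -0.35 ± 0.20 (adjusted p = 0.506) in 2x Str let-7f and -0.38 ± 0.18 (adjusted p = 0.323) in Str let-7f.

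The other ring genes differed by less. Mcm5 had 1574, 1596, 1639, 2014 and 1866 normalized counts in 2x Str let-7f, and ran from 1415 through 1704 to 1922 in Str let-7f, against 1701 through 2025 to 2200 in vehicle. All 13 mimic pools lay below its vehicle median, with log2 fold changes of -0.19 ± 0.11 (limma adjusted p = 0.487) in 2x Str let-7f and -0.21 ± 0.09 (adjusted p = 0.287) in Str let-7f. Mcm3 gave -0.23 ± 0.11 (adjusted p = 0.369) in 2x Str let-7f and -0.11 ± 0.09 (adjusted p = 0.661) in Str let-7f. Mcm4 gave -0.05 ± 0.12 (adjusted p = 0.925) in 2x Str let-7f and -0.22 ± 0.11 (adjusted p = 0.353) in Str let-7f. Mcm6, at 3102, 1954, 2165, 1926 and 2033 normalized counts in 2x Str let-7f and from 1314 through 1747 to 1993 in Str let-7f, against 1513 through 2088 to 2723 in vehicle, was the only ring gene on opposite sides of 0, at 0.05 ± 0.15 (adjusted p = 0.929) in 2x Str let-7f and -0.32 ± 0.13 (adjusted p = 0.234) in Str let-7f.

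The ORC genes showed no common direction. Orc5, an ATPase subunit of the complex, had 252, 355, 282, 351 and 322 normalized counts in 2x Str let-7f, and ran from 249.98 through 328 to 433 in Str let-7f, against 295 through 447 to 579 in vehicle. All 13 mimic pools lay below its vehicle median and inside or just under the vehicle range. Orc5 gave log2 fold changes of -0.42 ± 0.19 (limma adjusted p = 0.364) in 2x Str let-7f and -0.31 ± 0.17 (adjusted p = 0.413) in Str let-7f. Orc2 was positive, at 0.19 ± 0.23 in 2x Str let-7f and 0.29 ± 0.20 in Str let-7f, as was Orc4, at 0.10 ± 0.18 in 2x Str let-7f and 0.11 ± 0.16 in Str let-7f. Orc3 gave -0.16 ± 0.19 in 2x Str let-7f and 0.05 ± 0.17 in Str let-7f, and Orc6 gave -0.34 ± 0.19 in 2x Str let-7f and -0.06 ± 0.17 in Str let-7f. Orc1, the largest ORC subunit, gave -0.26 ± 0.44 in 2x Str let-7f and -0.20 ± 0.39 in Str let-7f, with single high pools. In Str let-7f replicate 1 held 1887 normalized counts where the group median was 218. In 2x Str let-7f replicate 1 held 546 where the group median was 237, against a vehicle median of 277. Below every vehicle pool lay 2 of 5 pools of 2x Str let-7f and 4 of 8 of Str let-7f, and 1 pool of each group lay above every vehicle pool.

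The factors that turn the loaded ring into a moving helicase differed in how well they were resolved. Mcm10, which helps start unwinding, gave log2 fold changes of -0.01 ± 0.14 in 2x Str let-7f and -0.10 ± 0.13 in Str let-7f. Cdc45 gave 0.02 ± 0.17 in 2x Str let-7f and 0.07 ± 0.15 in Str let-7f. Among the GINS genes, Gins1, Gins2 and Gins3 were negative in both groups, between -0.46 and -0.17, and Gins4 was positive in both, at 0.17 ± 0.22 in 2x Str let-7f and 0.08 ± 0.20 in Str let-7f. Gins2 and Gins3 had standard errors of 0.34 to 0.42, the widest of this group beside Orc1, so their direction was not resolved. Over all 21 helicase and origin genes the median log2 fold change was -0.24 in 2x Str let-7f and -0.20 in Str let-7f, with 16 of 21 below 0 in each. An unadjusted p under 0.05 was found for 5 of the 21 (23.8%) in 2x Str let-7f and for 6 of them (28.6%) in Str let-7f, all below vehicle, where 12.9% of all genes had one in 2x Str let-7f and 14.9% in Str let-7f. The 21 were not tested as a group.

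**Figure D3:**
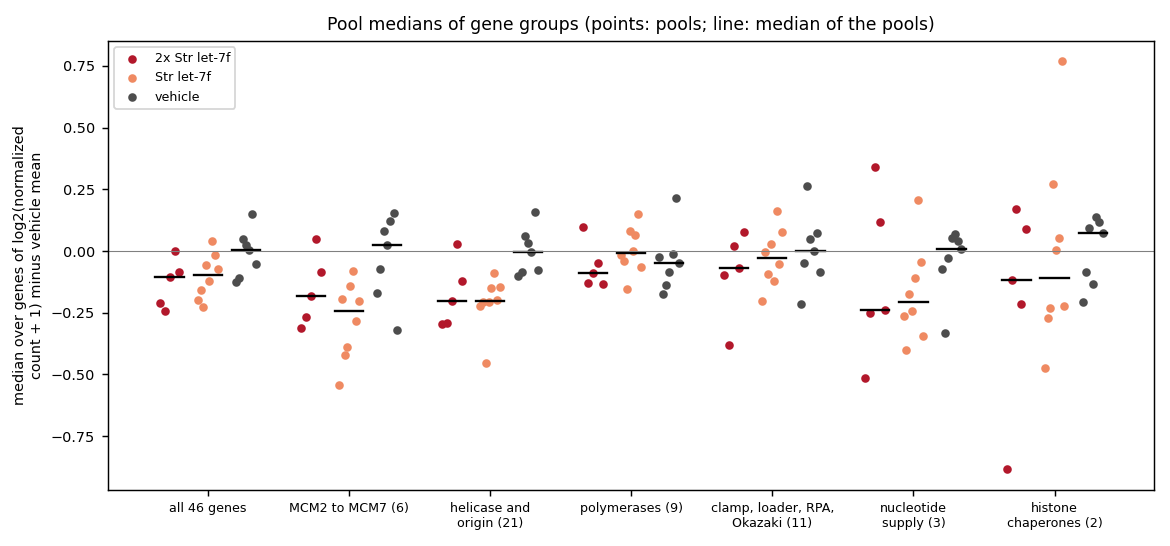
Median over the genes of each role of the log2 difference from the vehicle mean (y axis, log2 scale), with 1 point per pool for 2x Str let-7f (n = 5), Str let-7f (n = 8) and vehicle (n = 7). For the 21 helicase and origin genes all 8 Str let-7f pools lie below 0, between -0.45 and -0.09, and the vehicle pools lie between -0.10 and 0.16.

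The plot of pool medians sets the helicase and origin genes beside the polymerases. For the helicase and origin genes the pool medians ran from -0.30 to 0.03 in 2x Str let-7f and from -0.45 to -0.09 in Str let-7f, against -0.10 to 0.16 in vehicle. For the 9 polymerase genes they ran from -0.13 to 0.10 in 2x Str let-7f and from -0.15 to 0.15 in Str let-7f, against -0.18 to 0.21 in vehicle. The median log2 fold change of the polymerase genes was -0.19 in 2x Str let-7f and 0.15 in Str let-7f. Whether the roles differ from each other was not tested.

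Within the polymerases, Pole had the smallest p in 2x Str let-7f and Pold3 in Str let-7f, and they pointed in opposite directions. Pole encodes the catalytic subunit of polymerase epsilon, which copies the leading strand. It had 2380, 1246, 1049, 775 and 1310 normalized counts in 2x Str let-7f, and ran from 1013 through 1400 to 1668 in Str let-7f, against 1541 through 1587 to 2099 in vehicle. Replicate 1 of 2x Str let-7f was above every vehicle pool, while its other four pools and 6 of 8 Str let-7f pools were below every vehicle pool. The log2 fold change was -0.42 ± 0.19 (limma adjusted p = 0.344) in 2x Str let-7f, -0.32 ± 0.17 (adjusted p = 0.376) in Str let-7f and -0.37 ± 0.15 (adjusted p = 0.209) for both. Without 2x Str let-7f replicate 1 it was -0.65 (adjusted p = 0.0314) in 2x Str let-7f and -0.49 (adjusted p = 0.0213) for both, and of the libraries left out in turn only this one brought Pole past the threshold. Pole2, the next subunit of that enzyme, gave -0.33 ± 0.28 in 2x Str let-7f and -0.42 ± 0.25 in Str let-7f.

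Pold3, an accessory subunit of polymerase delta and 1 of the 2 genes with a let-7 seed match, stood higher. Its normalized counts were 686, 767, 841, 1002 and 955 in 2x Str let-7f, and ran from 612 through 930 to 1204 in Str let-7f, against 598 through 664 to 966 in vehicle. All 5 pools of 2x Str let-7f and 7 of 8 of Str let-7f lay above the vehicle median, within a range that overlapped vehicle. The log2 fold change was 0.30 ± 0.17 (limma adjusted p = 0.501) in 2x Str let-7f and 0.38 ± 0.15 (adjusted p = 0.220) in Str let-7f. The catalytic subunit gene Pold1 gave -0.19 ± 0.28 in 2x Str let-7f and 0.31 ± 0.25 in Str let-7f, and Pold2 gave 0.14 ± 0.25 in 2x Str let-7f and 0.25 ± 0.22 in Str let-7f. The polymerase alpha and primase genes encode the complex that lays down the first primers. Pola1 was positive in both groups, at 0.21 ± 0.24 in 2x Str let-7f and 0.19 ± 0.21 in Str let-7f, and Prim1 was negative in both, at -0.24 ± 0.17 in 2x Str let-7f and -0.26 ± 0.15 in Str let-7f. Pola2 gave -0.09 ± 0.18 in 2x Str let-7f and 0.15 ± 0.16 in Str let-7f, and Prim2 gave -0.29 ± 0.16 in 2x Str let-7f and 0.06 ± 0.14 in Str let-7f.

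The clamp, its loader, RPA and the Okazaki enzymes had a median log2 fold change of -0.09 in 2x Str let-7f and -0.08 in Str let-7f, with 9 of 11 below 0 in each and none at an unadjusted p under 0.05. Pcna, the sliding clamp that keeps polymerases on DNA, had 834, 502, 1015, 826 and 954 normalized counts in 2x Str let-7f, and ran from 475 through 709 to 1112 in Str let-7f, against 703 through 884 to 1104 in vehicle. Of its pools, 3 of 5 in 2x Str let-7f and 7 of 8 in Str let-7f lay below the vehicle median, and the highest Str let-7f pool lay just above every vehicle pool, with log2 fold changes of -0.19 ± 0.19 (limma adjusted p = 0.767) in 2x Str let-7f and -0.31 ± 0.17 (adjusted p = 0.408) in Str let-7f. Of the clamp loader genes, Rfc5 gave -0.36 ± 0.18 (adjusted p = 0.396) in 2x Str let-7f and -0.10 ± 0.16 in Str let-7f, and all 5 of its 2x Str let-7f pools lay below the vehicle median. Rfc3 was the only loader gene above 0, at 0.49 ± 0.30 in 2x Str let-7f and 0.37 ± 0.26 in Str let-7f, and Rfc1, Rfc2 and Rfc4 lay between -0.21 and -0.05 in both.

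RPA coats single-stranded DNA at the fork. Rpa2 had log2 fold changes of -0.43 ± 0.23 (limma adjusted p = 0.448) in 2x Str let-7f and -0.16 ± 0.20 (adjusted p = 0.790) in Str let-7f, and all 5 of its 2x Str let-7f pools (182, 245, 261, 346 and 303 normalized counts) lay below the vehicle median of 380. Rpa1 gave -0.04 ± 0.14 in 2x Str let-7f and 0.18 ± 0.12 in Str let-7f. Rpa3 was listed with 12.9 to 67.0 normalized counts in 2x Str let-7f and 0 to 127 in Str let-7f, against 12.3 to 57.1 in vehicle, and its standard errors of 0.82 and 0.73 leave its direction unresolved at this depth. The pool at 0 was Str let-7f replicate 1, where 3 reads would be worth 5.87 normalized counts. Fen1, the flap nuclease, and Lig1, the ligase that joins Okazaki fragments, lay close to vehicle: Fen1 gave -0.03 ± 0.15 in 2x Str let-7f and 0.00 ± 0.13 in Str let-7f, and Lig1 gave -0.06 ± 0.11 in 2x Str let-7f and -0.03 ± 0.10 in Str let-7f.

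Of the nucleotide supply genes, Rrm2 was the 1 replication gene with the longer let-7 match in its 3′ UTR. It encodes the small subunit of ribonucleotide reductase, which makes deoxyribonucleotides and is limiting in S phase. Its normalized counts were 1408, 1686, 2387, 2071 and 1664 in 2x Str let-7f, and ran from 1099 through 1721 to 2062 in Str let-7f, against 1594 through 1937 to 2898 in vehicle. Below the vehicle median lay 3 of 5 pools of 2x Str let-7f and 6 of 8 of Str let-7f, with 1 pool of 2x Str let-7f and 3 of Str let-7f below every vehicle pool, and the ranges overlapped widely. Rrm2 gave log2 fold changes of -0.15 ± 0.17 (limma adjusted p = 0.791) in 2x Str let-7f and -0.30 ± 0.15 (adjusted p = 0.351) in Str let-7f. Rrm1, the large subunit, gave 0.14 ± 0.12 in 2x Str let-7f and -0.04 ± 0.11 in Str let-7f, and Tyms, which makes thymidylate, gave -0.16 ± 0.21 in 2x Str let-7f and 0.04 ± 0.19 in Str let-7f. Chaf1a and Chaf1b, subunits of CAF-1, gave -0.16 ± 0.13 and -0.23 ± 0.31 in 2x Str let-7f, and Chaf1a gave -0.02 ± 0.11 in Str let-7f, where Chaf1b was at 0.00 ± 0.27.

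**Figure D4:**
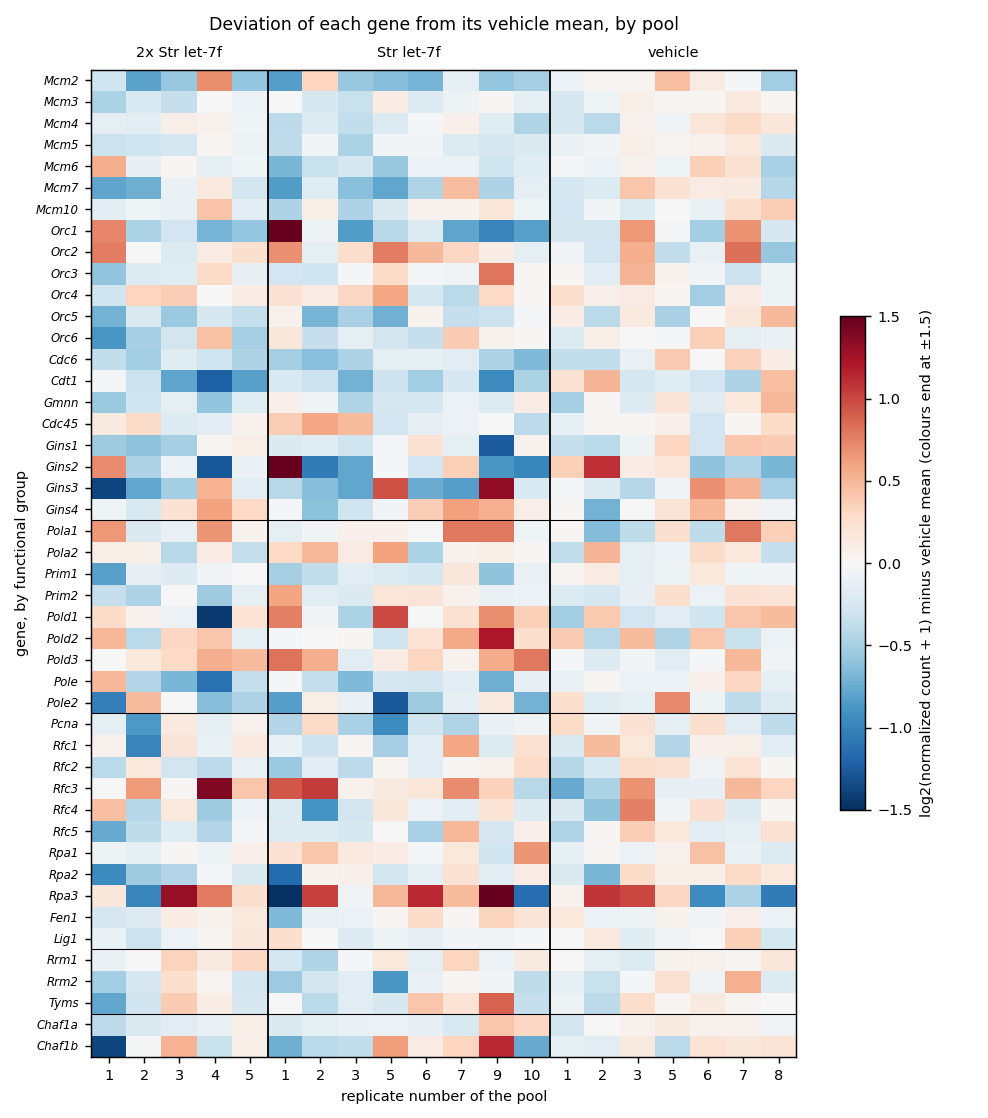
Log2 difference from the vehicle mean (colour, log2 scale, with the darkest shades also covering larger differences) for the 46 replication genes (rows, by role) in each of the 20 pools (columns, grouped as 2x Str let-7f, Str let-7f and vehicle). Blue cells are more frequent among Cdt1, Cdc6 and the MCM genes in the mimic pools, and single pools stand out for single genes, such as Orc1 in Str let-7f replicate 1.

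No replication gene passed the threshold between the doubled and the single concentration. With 2x Str let-7f set against Str let-7f, limma called 0 of the 46 and 0% of all genes, edgeR and DESeq2 called 0 of the 46, and 2 of the 46 (4.35%) had an unadjusted p under 0.05, where 4.04% of all genes did. None of the 46 separated the 2 groups of pools, which 0.0796% of all genes did. The 2 genes were Mcm6, 0.37 ± 0.14 higher on the log2 scale in 2x Str let-7f, and Prim2, with a log2 fold change of -0.35 ± 0.16, each at a limma adjusted p of 0.9997. Prim2 had 384, 353, 487, 336 and 444 normalized counts in 2x Str let-7f, and ran from 420 through 484 to 736 in Str let-7f. The median log2 fold change over the 46 was -0.07, with 29 below 0, and the 95% interval lay within a 2-fold change for 43 of the 46 genes and within a 1.5-fold change for 29. A p that misses the threshold does not show that both concentrations act alike.

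Genes that surround this machinery were read in 5 further lists. Of 31 S phase regulators, limma called 0 in 2x Str let-7f, where it called 1.89% of all genes. In Str let-7f it called 1, where it called 2.63% of all genes. An unadjusted p under 0.05 was found for 5 (16.1%) in 2x Str let-7f, where 12.9% of all genes had one. In Str let-7f it was found for 7 (22.6%), where 14.9% of all genes had one. The called gene was Cdkn1a, which rose. It encodes p21, an inhibitor of cyclin-dependent kinases that also binds PCNA. It had 418 to 534 normalized counts in the 5 pools of 2x Str let-7f (median 465.9), and ran from 261 through 463 to 722 in Str let-7f, against 182 through 273 to 392 in vehicle. All 5 pools of 2x Str let-7f lay above every vehicle pool, and the Str let-7f pools overlapped the vehicle pools. A full separation of 2x Str let-7f from vehicle, in either direction, was seen in 2.25% of all genes. The log2 fold change was 0.77 ± 0.21 (limma adjusted p = 0.0613) in 2x Str let-7f, 0.74 ± 0.19 (adjusted p = 0.0324) in Str let-7f and 0.76 ± 0.17 (adjusted p = 0.0113) for both. In Str let-7f the call was lost without any 1 of Str let-7f replicates 2, 5, 6 and 9 or vehicle replicates 1, 3, 6, 7 and 8, at adjusted p of 0.0507 to 0.0777, and with the 2 groups fitted alone (0.0652). With only the libraries over 5 M reads the adjusted p was 0.219 in Str let-7f and 0.174 for both. The 2x Str let-7f value passed in limma without vehicle replicate 5, at 0.0420, and in DESeq2 on the recovered reads, at an adjusted p of 0.0263.

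The other regulators and the remaining lists held no called gene. Ccnd3, cyclin D3, which activates the kinases that release E2F, had the next smallest p in 2x Str let-7f, at a log2 fold change of -0.73 ± 0.20 (limma adjusted p = 0.0615). For Str let-7f it was E2f8, a repressor among the E2F factors, at -0.59 ± 0.21 (adjusted p = 0.149). Ccnd1, cyclin D1, a partner of the same kinases as Ccnd3, had the largest fold change of the regulators and the second smallest p for both groups combined. It had 46.8 to 439 normalized counts in 2x Str let-7f (median 258), and ran from 25.3 through 131 to 690.4 in Str let-7f, against 15.6 through 67.2 to 83.4 in vehicle. Above every vehicle pool lay 4 of 5 pools of 2x Str let-7f and 5 of 8 of Str let-7f, with the others inside the vehicle range. Its log2 fold change was 2.00 ± 0.65 (adjusted p = 0.137) in 2x Str let-7f, 1.42 ± 0.58 (adjusted p = 0.232) in Str let-7f and 1.71 ± 0.53 (adjusted p = 0.0744) for both, none past the threshold. limma called 0 of 26 tested genes of 28 further fork and origin proteins, 0 of 19 further nucleotide supply genes, 0 of 12 replication-coupled chromatin genes and 0 of 10 checkpoint genes in each mimic group. In 2x Str let-7f an unadjusted p under 0.05 was found for 3 (11.5%) of the fork and origin proteins and 2 (10.5%) of the nucleotide supply genes. There it was also found for 4 (33.3%) of the chromatin genes and 1 (10%) of the checkpoint genes. In Str let-7f it was found for 5 (19.2%) of the fork and origin proteins and 3 (15.8%) of the nucleotide supply genes. There it was also found for 4 (33.3%) of the chromatin genes and 2 (20%) of the checkpoint genes. In each mimic group all 4 of these chromatin genes lay below vehicle. Over all genes the share was 12.9% in 2x Str let-7f and 14.9% in Str let-7f, and no test of a whole list was made. The surrounding lists, regulators included, also lay mostly below vehicle, so this lean was not particular to the 46 genes. Their median log2 fold changes ran from -0.23 to -0.11 in 2x Str let-7f, against -0.17 over the 46. In Str let-7f they ran from -0.19 to -0.01, against -0.10 over the 46. The nearest to the threshold were Atr, the kinase that senses stalled forks, at -0.54 ± 0.16 in Str let-7f (adjusted p = 0.0719) and Top1, which relaxes DNA ahead of the fork, at -0.38 ± 0.12 in Str let-7f (adjusted p = 0.0889). Chek1, the kinase downstream of ATR, gave -0.80 ± 0.29 (adjusted p = 0.208) in 2x Str let-7f and -0.57 ± 0.26 (adjusted p = 0.290) in Str let-7f. Uhrf1, which brings DNA methylation to newly copied strands, gave -0.64 ± 0.23 (adjusted p = 0.204) in 2x Str let-7f, and Hells, a chromatin remodeller, gave -0.40 ± 0.15 (adjusted p = 0.178) in Str let-7f.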

How the data were processed

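Per the submitters' processing notes, reads were handled with Trimmomatic 0.39, kallisto 0.50.1, FastQC 0.12.1, MultiQC 1.28 and DESeq2 1.48.2 on build GRCm39; how duplicate reads were treated is not given in the sources used here. The deposited signal is a normalized count per gene in each of 20 libraries, which is not a raw count. In every library 100% of these values were whole multiples of 1 read (tolerance 0.01 read), and the recovered reads gave the depths; rows with no gene name, 0.0286% to 0.0618% of reads, were left out. kallisto can split reads between near-identical transcripts.

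Genes with at least 10 normalized counts in at least 5 libraries (15068) were tested on log2(value + 1) with limma 3.58.1 in R 4.3.3, with a trended prior, 1 mean per group over all 20 libraries and no replicate block, two-sided, with Benjamini-Hochberg adjustment over all genes. A fold change on this scale understates the change of low genes. Count tests on the recovered reads were alternatives: edgeR 4.0.16 (TMM) called 270 genes in 2x Str let-7f, 417 in Str let-7f and 608 in both against vehicle, and DESeq2 1.42.0 called 621, 767 and 1005. A count of 0 allows up to 3 reads, for counting error only. The 59 within-group pairs of libraries differed by more than sampling noise (lowest chi-square per degree of freedom 17.8).

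The surrounding lists, like the 46 genes, were chosen with earlier results of these data known. Eligible for full statistics were called genes, the 10 of smallest unadjusted p per comparison and the smallest of each role. Of the surrounding lists, called genes and the 2 of smallest p were eligible. Not every eligible gene is given with them, above all between the 2 concentrations and for both groups combined. The 3′ UTRs are GENCODE M21's and the microRNA and promoters RefSeq's (GRCm38.p6), used for letters and their own coordinates only.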

Additional observations from a re-analysis of the deposited data

Results flagged for a closer look

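The distance of each extreme pool from the rest of its group was set against Dixon's 95% critical value. In 138 groups of 5, 7 or 8 pools (46 genes in 3 groups), 19 extreme pools passed it, in 17 genes. For normally distributed values chance flags about 1 in 20 groups, or 6.9 here. The counts were not put on a log scale and need not be so distributed, so 19 against 6.9 does not measure an excess. All values are normalized counts. In 2x Str let-7f, replicate 4 was highest for Mcm2 (5015) and Mcm10 (3238), and replicate 1 was highest for Mcm6 (3102) and Orc1 (546) and lowest for Prim1 (202). In Str let-7f, replicate 1 was highest for Orc1 (1887), Gins2 (1112), Prim2 (736) and Lig1 (2596) and lowest for Rpa2 (159). Replicate 9 of Str let-7f, the shallowest library at 1.54 M reads, was highest for Orc3 (747), Pold2 (602) and Rpa3 (127) and lowest for Gins1 (88.7). Replicate 7 of Str let-7f was highest for Mcm7 (3648). In vehicle, replicate 7 was highest for Pold3 (966) and Pole (2099), replicate 3 for Orc3 (610.2) and replicate 6 for Rpa1 (1635).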

How the results depend on the processing

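The number of replication genes called moved from 0 as follows, always below vehicle. It was 1 in 2x Str let-7f with array weights (Cdt1) and 0 to 2 when a library was left out (Cdt1 and Pole without 2x Str let-7f replicate 1). In Str let-7f it was 1 with array weights (Mcm2). For both groups it was 1 (Cdt1) with a minimum of 50 normalized counts, quantile normalization, edgeR TMM or edgeR RLE, 2 with DESeq2 or array weights, and 0 to 2 when a library was left out. Between the 2 concentrations it stayed 0. Over all alternatives the median of the 46 genes stayed below 0, from -0.21 to -0.12 in 2x Str let-7f, from -0.15 to -0.04 in Str let-7f and from -0.16 to -0.10 for both. By role, the helicase and origin median also stayed below 0 (-0.28 to -0.19 in 2x Str let-7f, -0.22 to -0.10 in Str let-7f). Medians of other roles crossed 0: the polymerases for both groups (-0.06 to 0.09), nucleotide supply in Str let-7f (-0.10 to 0.02) and for both (-0.13 to 0.02), the chaperones in Str let-7f (-0.12 to 0.05), and, between the 2 concentrations, the clamp group (-0.12 to 0.04) and the chaperones (-0.27 to 0.03). Of 1338 values for named replication genes, 1335 kept their direction. The 3 that did not were Chaf1a in Str let-7f against vehicle (main value -0.02), at 0.00744 without Str let-7f replicate 1, 0.00812 without Str let-7f replicate 7 and 0.00234 without vehicle replicate 5, in a range of -0.0827 to 0.00812 when a library was left out; the cause was not tested.

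The same-numbered pools deviated together weakly at most (14 pairs, r from -0.00657 to 0.0922, 3 best with their own number), and this was not tested against differently numbered pools. With the replicate number as a block, 277 genes were called in 2x Str let-7f, 293 in Str let-7f and 518 for both, and 0 of the replication genes. Genes called overall differed by over 1.5 times in several settings: in 2x Str let-7f 285, against 68 with only libraries over 5 M reads, 621 with DESeq2 and 647 with array weights; in Str let-7f 397, against 201, 767 and 617; for both 602, against 276, 1005 and 1051. Between the 2 concentrations, edgeR called 1 and DESeq2 11, where limma called 0. Leaving out a library gave 144 to 273 in 2x Str let-7f, 282 to 459 in Str let-7f and 397 to 684 for both. Low reads limit Rpa3 most.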
